A study of Mus musculus with 4 samples.

Results

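The genes studied here were 10 that encode AMPA receptor subunits and the auxiliary proteins bound to them, *Gria1*, *Gria2*, *Gria3*, *Gria4*, *Cacng2*, *Cacng3*, *Cacng8*, *Cnih2*, *Cnih3* and *Shisa9*. They were taken by symbol from count tables of 23420 genes, and all 10 were present and passed the filter on low counts. RNA-seq was performed on the prefrontal cortex (PFC) of C57BL6/J mice, with 2 samples in each group. Control mice had received GFP-AAV9, which the methods describe as AAV with scrambled shRNA, and the other group had received AAV9 with *Ash1L* shRNA. The age is given as 6 to 8 weeks in the series description, while the methods give 5 weeks for the injection. Both sexes were used in the study. The shRNA was 1 hairpin under a U6 promoter, with GFP as the tag. Tissue was punched where GFP fluoresced and, per the methods, pooled from 3 mice for each sample (the series description instead counts 3 knockdown and 2 control mice), so that infected and uninfected cells of every type were sequenced together. Fewer cells of a type and less RNA per cell cannot be told apart in such tissue. The spread within a group is that between its 2 samples. Whether these came from separate pools of mice is not settled by the sources, which disagree on the number of mice. The p-values of the gene tests below rest on the spread between samples and on dispersions shared over all genes tested.

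AMPA receptors are glutamate-gated cation channels that carry most fast excitatory transmission in the cortex. They are assembled from the subunits GluA1 to GluA4, encoded by *Gria1* to *Gria4*. The GluA2 subunit, after editing of its transcript, makes the channel nearly impermeable to calcium. Transmembrane AMPA receptor regulatory proteins (TARPs), cornichons and the Shisa protein CKAMP44 bind the assembled receptor and set its export from the endoplasmic reticulum, its anchoring at the synapse and the speed of its gating. Ash1L is a histone methyltransferase, and the comparison asks how the transcripts of these receptor genes stood in PFC after its knockdown.

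Total counts ran from 14251190 to 35764874 per sample, and the counts of the 10 genes from 396 (*Cacng8*, control sample 1) to 39498 (*Gria2*, control sample 2). Levels are given below as CPM, TMM-scaled. The targeted gene *Ash1l* (ENSMUSG00000028053) had 245.0 and 290.1 CPM in control samples 1 and 2, and 215.6 and 137.5 CPM in *Ash1L* shRNA samples 1 and 2. The groups did not overlap, and sample 2 of the shRNA group was the lowest. Its log2 fold change was -0.60 (SE 0.22), and edgeR's quasi-likelihood test gave it an adjusted p of 0.275 (Benjamini-Hochberg over all genes).

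In PFC with *Ash1L* shRNA, the fitted level was lower for all 10 AMPA receptor genes, with log2 fold changes from -0.65 in *Cacng3* to -0.06 in *Cacng8*. A negative fold change was found in 50.3% of the 16232 genes tested. The median was -0.33 over the 10 genes and -0.003 over all genes tested. In 9 of the 10, neither shRNA sample reached the lower control, a pattern held by 26.8% of all genes tested. The exception was *Cacng2*, whose groups overlapped. The study's thresholds were an unadjusted P under 0.05 with at least a 1.2-fold change. In edgeR's quasi-likelihood test they called *Cacng3*, *Cnih2* and *Shisa9* DOWN and 0 of the 10 UP. Such calls were made for 8.28% of all genes tested in the DOWN and 8.61% in the UP direction. Benjamini-Hochberg adjustment over all genes left 0 of the 10 under 0.05 in edgeR's quasi-likelihood test, with 3 of the 10 at an unadjusted p under 0.05, and their adjusted p-values lay between 0.261 and 0.83. After adjustment, 0.00616% of all genes were called lower and 0% higher. The study applied its thresholds to DESeq2, which here called *Cacng3*, *Cnih2*, *Shisa9* and *Gria3* DOWN, with 7.79% of all genes DOWN. DESeq2 and edgeR's likelihood ratio test also left 0 of the 10 after adjustment.

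**Figure D1:**
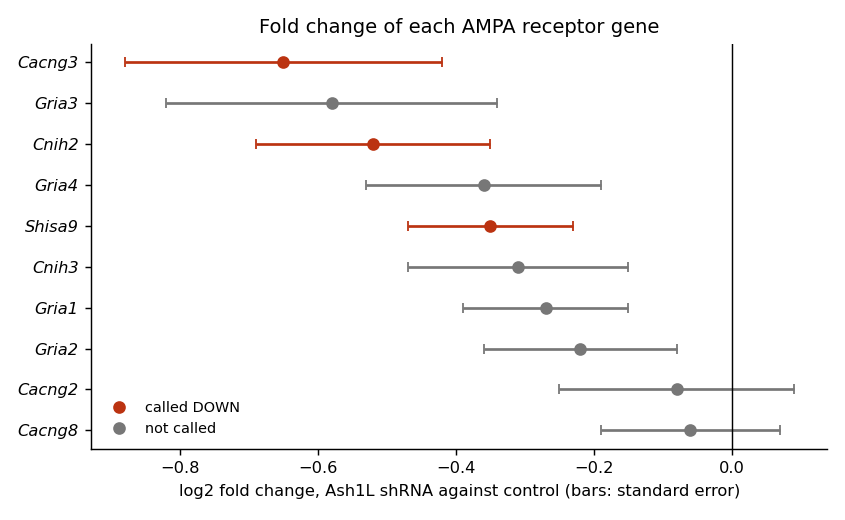
Log2 fold change of each AMPA receptor gene, *Ash1L* shRNA against control (2 samples each), from edgeR's quasi-likelihood fit; points are fitted values, bars 1 standard error. All 10 points lie below 0, from -0.65 (*Cacng3*) to -0.06 (*Cacng8*), and the genes called DOWN are *Cacng3*, *Cnih2* and *Shisa9*.

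The number of calls depended on single samples. Without control sample 1, 1 of the 10 genes was DOWN (background 4.14% of all genes), without control sample 2 none was, giving 0 (background 1.86%), and without *Ash1L* shRNA sample 2 the number was 1 (background 5.05%). Without *Ash1L* shRNA sample 1, 8 were DOWN, and 5 of these (*Gria3*, *Gria4*, *Cacng3*, *Cnih2* and *Cnih3*) also passed 0.05 after adjustment in edgeR's test, when 16.5% of all genes were DOWN and 2502 of 16494 genes passed after adjustment. In these fits the lone sample of a group was assumed to vary like the other group.

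*Gria1* (ENSMUSG00000020524, chromosome 11 of mm10 from 57011387 to 57330244) encodes GluA1, a subunit of most receptors in pyramidal neurons and the one best known from activity-dependent insertion at synapses. It had 459.1 and 479.8 CPM in control samples 1 and 2, and 408.1 and 369.9 CPM in *Ash1L* shRNA samples 1 and 2. Both shRNA samples were below both controls, by more than the controls differed from each other. The log2 fold change was -0.27 (SE 0.12, adjusted p = 0.302 in edgeR's quasi-likelihood test), a level 17.1% lower, and *Gria1* was not called. With a correction for GC content it was called DOWN, at -0.28 (unadjusted p = 0.0465 in edgeR's quasi-likelihood test), as was *Gria3* below, when 7.49% of all genes were DOWN.

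*Gria2* (ENSMUSG00000033981, chromosome 3 from 80681450 to 80802835) encodes GluA2 and took the most counts of the 10 genes. The values were 1066 and 1126 CPM in the control samples and 1039 and 838.0 CPM in *Ash1L* shRNA samples 1 and 2. Sample 1 of the shRNA group lay just under the lower control, and the distance was carried mostly by sample 2. The fit gave a log2 fold change of -0.22 (SE 0.14, adjusted p = 0.447 by edgeR's quasi-likelihood test).

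*Gria3* (ENSMUSG00000001986, chromosome X from 41400854 to 41678601), which encodes GluA3, had the lowest fold change of the pore-forming subunits. Its CPM was 347.1 and 427.6 in the controls, and 321.5 and 198.3 in *Ash1L* shRNA samples 1 and 2. The controls themselves were spread, and the first shRNA sample was nearer to control sample 1 than the 2 controls were to each other. The log2 fold change was -0.58 (SE 0.24, adjusted p = 0.308 in edgeR's quasi-likelihood test). It missed the call at an unadjusted p of 0.0576 in edgeR's quasi-likelihood test and passed it with DESeq2, at a p of 0.0165, and with edgeR's likelihood ratio test, at a p of 0.034. Its fold change was -0.97 without *Ash1L* shRNA sample 1 and -0.27 without sample 2.

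*Gria4* (ENSMUSG00000025892, chromosome 9 from 4417896 to 4796234) encodes GluA4, a fast-gating subunit that is prominent in parvalbumin interneurons. Control samples agreed closely, at 192.0 and 190.1 CPM, and *Ash1L* shRNA samples 1 and 2 had 174.0 and 124.1 CPM. Both were lower, the second by far more. The log2 fold change was -0.36 (SE 0.17) and edgeR's quasi-likelihood test gave an adjusted p of 0.34.

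**Figure D2:**
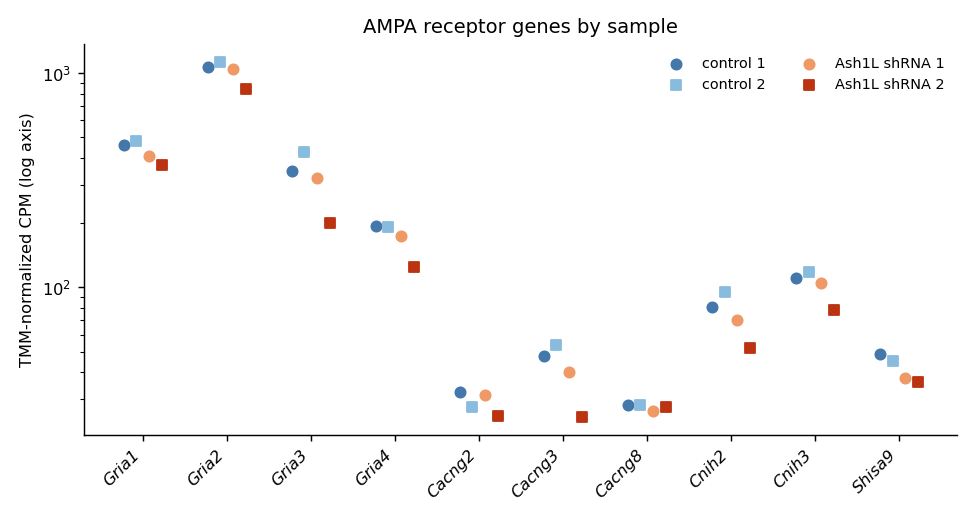
TMM-normalized CPM (log axis) of each AMPA receptor gene in each of the 4 samples. Each point is 1 sample, per the methods a pool of 3 mice. *Ash1L* shRNA sample 2 is the lowest for 9 of the 10 genes, and *Cacng2* is the only one of them in which the groups overlap.

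The TARPs did not stand alike. *Cacng3* (ENSMUSG00000066189, chromosome 7 from 122670492 to 122769393), a TARP of cortical neurons, had 47.7 and 53.9 CPM in the control samples against 40.0 and 24.8 CPM in *Ash1L* shRNA samples 1 and 2. It was the gene with the largest change among the 10, with a log2 fold change of -0.65 (SE 0.23), a level 36.2% lower, and it was called DOWN, at 0.266 after adjustment in edgeR's quasi-likelihood test. The call was lost without control sample 1 (log2 fold change -0.73) and without control sample 2 (-0.56), and the fold change was -1.05 without *Ash1L* shRNA sample 1 and -0.35 without sample 2.

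For *Cacng2* (ENSMUSG00000019146, chromosome 15 from 77991748 to 78120028), which encodes stargazin, the TARP in which the family was discovered, the CPM was 32.4 and 27.5 in the controls and 31.3 and 25.1 in *Ash1L* shRNA samples 1 and 2. One shRNA sample lay between the controls, and no difference beyond the spread of the samples was seen. The log2 fold change was -0.08 (SE 0.17), and it was 0.05 without control sample 1 and 0.07 without *Ash1L* shRNA sample 2.

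*Cacng8* (ENSMUSG00000053395, chromosome 7 from 3390683 to 3415648), a TARP abundant in forebrain, stood at 28.1 and 28.2 CPM in the controls and at 26.5 and 27.5 CPM in *Ash1L* shRNA samples 1 and 2. The 4 values were close together, although the groups did not overlap. Its log2 fold change was -0.06 (SE 0.13), and 0.07 when the fit was corrected for GC content.

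*Cnih2* (ENSMUSG00000024873, chromosome 19 from 5092868 to 5098521) encodes a cornichon, a partner in receptor export and in slow gating at the surface. It had 80.5 and 94.8 CPM in the controls and 70.5 and 52.1 CPM in *Ash1L* shRNA samples 1 and 2. Both shRNA samples were below both controls, and the gene was called DOWN at -0.52 on the log2 scale (SE 0.17, adjusted p = 0.261 by edgeR's quasi-likelihood test). The call was lost without control sample 2, without *Ash1L* shRNA sample 2 (log2 fold change -0.31) and with a correction for GC content (-0.41).

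Its paralogue *Cnih3* (ENSMUSG00000026514, chromosome 1 from 181352628 to 181460641) had 110.8 and 117.1 CPM in the control samples, and 104.8 and 78.5 CPM in *Ash1L* shRNA samples 1 and 2. The order of the samples was that of *Cnih2*, with a smaller distance between the groups. The log2 fold change was -0.31 (SE 0.16, adjusted p = 0.354 in edgeR's quasi-likelihood test), and *Cnih3* was not called.

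Promoter sequence is shown for this pair because *Cnih2* was called and its paralogue was not. Both RefSeq start sites (GRCm38) also coincide with the GENCODE gene start. The 2 genes were not shown to differ in their change. The log2 ratio of *Cnih2* to *Cnih3* counts changed by -0.20 with *Ash1L* shRNA (p = 0.33 by the exact permutation test). Each line holds the 250 bases before the start site, 5′ to 3′ on the gene's strand, with CG dinucleotides in capitals.
Cnih2: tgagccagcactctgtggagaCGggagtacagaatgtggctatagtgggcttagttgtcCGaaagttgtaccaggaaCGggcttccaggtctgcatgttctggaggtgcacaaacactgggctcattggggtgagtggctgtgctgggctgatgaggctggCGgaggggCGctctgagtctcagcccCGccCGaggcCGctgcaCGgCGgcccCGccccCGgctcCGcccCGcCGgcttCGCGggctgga
Cnih3: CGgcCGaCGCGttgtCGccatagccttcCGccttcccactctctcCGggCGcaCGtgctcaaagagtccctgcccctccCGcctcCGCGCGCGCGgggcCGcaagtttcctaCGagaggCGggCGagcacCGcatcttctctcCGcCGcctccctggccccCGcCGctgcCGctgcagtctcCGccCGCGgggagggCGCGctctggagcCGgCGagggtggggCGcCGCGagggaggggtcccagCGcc
The window of *Cnih2* (chr19:5098522-5098771, minus strand) held 17 CG dinucleotides and that of *Cnih3* (chr1:181352378-181352627, plus strand) held 36. At least as many were found in 23.5% and 2.6% of the 32851 RefSeq promoter windows, whose median was 6. For *Gria2* and *Gria4*, the other genes with coinciding starts, the windows held 19 and 16. No chromatin mark was analysed here.

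*Shisa9* (ENSMUSG00000022494, chromosome 16 from 11984113 to 12270902) encodes CKAMP44, a protein that modulates desensitization of the receptor. It had 48.7 and 45.1 CPM in the controls and 37.5 and 36.0 CPM in *Ash1L* shRNA samples 1 and 2. Here the 2 shRNA samples were close to each other, unlike most of the other genes. The log2 fold change was -0.35 (SE 0.12, adjusted p = 0.262 in edgeR's quasi-likelihood test) and *Shisa9* was DOWN. It lost the call without either control sample, without *Ash1L* shRNA sample 2, and when replicate numbers were blocked (unadjusted p = 0.0519 in edgeR's quasi-likelihood test), while the fold change ran only from -0.41 to -0.28 with 1 sample left out.

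The shRNA samples differed in the size of the change. Against the mean of the controls, the median log2 difference of the 10 genes was -0.17 in *Ash1L* shRNA sample 1 and -0.46 in sample 2. The difference was -0.31 and -0.96 for *Ash1l* itself. Sample 2 was the lower one for 9 of the 10 genes, as it was for 52.2% of all genes tested and for 90.0% of all DOWN genes. *Cacng8* was the exception. The absolute log2 difference between the shRNA samples had a median of 0.37 over the 10 genes, against 0.10 between the control samples. Over all genes tested, these medians were 0.23 and 0.17.

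**Figure D3:**
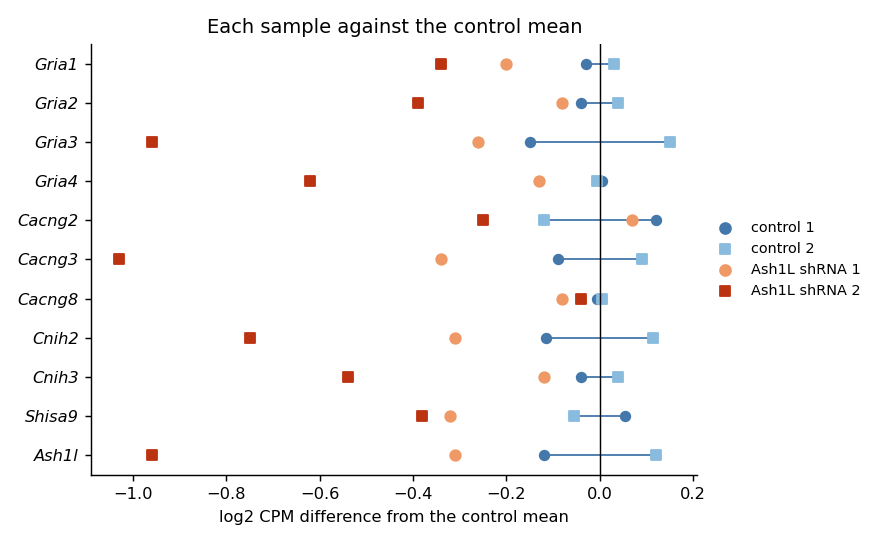
Log2 difference of CPM from the control mean, by sample, for the 10 AMPA receptor genes and *Ash1l*; each point is 1 sample, and the line joins the control samples. *Ash1L* shRNA sample 2 lies farther below 0 than sample 1 for 9 of the 10 genes, with medians of -0.46 and -0.17, and for *Ash1l* (-0.96 and -0.31).

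The makeup of each family was compared within samples, which needs no scaling between them. Counts were divided by exonic length in kb, and each member was taken as a percentage of the studied genes of its family. Further TARP and cornichon genes, such as *Cacng7* and *Cnih1*, were left out of these shares. *Gria2* made up 32.6% and 32.1% of the pore-forming subunits in control samples 1 and 2, and 34.3% and 34.8% in *Ash1L* shRNA samples 1 and 2. The share was thus 2.19 percentage points higher, 32.4% ± 0.348 against 34.6% ± 0.314 (SD, n = 2), and the groups did not overlap. The exact two-sided permutation p was 0.33, the smallest that 2 samples against 2 can give. *Gria3* made up 16.7% and 19.2% in the controls and 16.8% and 13.0% in the shRNA samples, with overlap. The groups did not overlap on raw counts (16.8% and 19.2% against 16.5% and 13.0%) or per kb of the longest transcript (23.2% and 26.3% against 23.1% and 18.3%). Among the 3 TARPs, the share of *Cacng3* was 49.0% and 53.3% in the controls, and 45.9% and 35.4% in *Ash1L* shRNA samples 1 and 2. *Cacng8* took 34.2% and 33.0% in the controls and 36.1% and 46.5% in the shRNA samples, so that the order of these 2 TARPs was turned in sample 2 alone. *Cnih2* made up 59.4% and 61.9% of the cornichon pair in the controls and 57.5% and 57.2% with *Ash1L* shRNA. Of 10 log2 count ratios within the families, none could go below a p of 0.33 by the exact permutation test, and after Benjamini-Hochberg adjustment the lowest was 0.666.

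**Figure D4:**
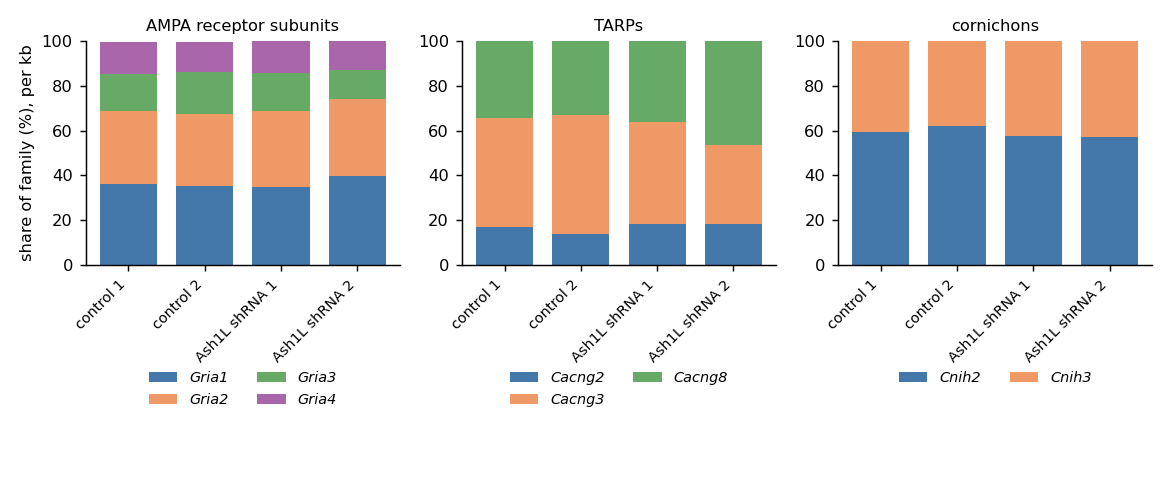
Share of each gene among the genes of its family studied here, in percent of counts per kb of exonic length. Panels show the pore-forming subunits, the TARPs and the cornichons. Each bar is 1 of the 4 samples and adds up to the studied genes of that family. The *Cacng3* segment is 35.4% in *Ash1L* shRNA sample 2, against 49.0% and 53.3% in the controls, while the *Gria2* segment stays between 32.1% and 34.8%.

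On the same scale per kb, the control means were 77.7 CPM per kb for *Gria1*, 70.5 for *Gria2*, 64.0 for *Cnih2*, 41.4 for *Cnih3*, 39.3 for *Gria3*, 30.3 for *Gria4*, 18.3 for *Cacng3*, 8.95 for *Shisa9* and 5.44 for *Cacng2*, with *Cacng8* between *Cacng3* and *Shisa9*. *Gria2* and *Cnih2* were within their spread of each other, with SDs of 2.71 and 7.35 (n = 2), as were *Cnih3* and *Gria3*, with SDs of 1.63 and 5.78. The order at the top depended on the length taken. With the longest transcript in place of all exons, *Gria2* had 105.7 and *Gria1* 84.6 CPM per kb, and *Gria3*, at 74.4, stood above *Cnih2* (65.3) and *Cnih3* (42.7).

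Other genes that act on AMPA receptors were read from lists chosen for their roles. The calls in each list stand beside 8.28% DOWN and 8.61% UP over all genes tested. Of 18 further auxiliary or associated proteins tested, 5 were DOWN and 1 was UP, with a median log2 fold change of -0.12. *Shisa7*, a relative of *Shisa9*, had 58.0 and 54.0 CPM in the controls and 42.2 and 32.2 CPM in *Ash1L* shRNA samples 1 and 2, a log2 fold change of -0.59 (SE 0.16). *Cacng7*, a further member of the TARP family, had 23.9 and 22.9 CPM against 16.9 and 12.1 CPM, a log2 fold change of -0.68 (SE 0.19). *Prrt2*, a presynaptic protein also found with AMPA receptors, and *Lrrtm4*, a synaptic adhesion protein, had log2 fold changes of -0.48 and -0.49. Those 4 genes were DOWN with adjusted p-values from 0.255 to 0.260 (edgeR's quasi-likelihood test). The remaining calls, named after their values were seen, were *Olfm2*, DOWN at -0.37, and *Cnih1*, a relative of the cornichons above, UP at 0.30.

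Of 6 genes for receptor assembly and export, 2 were DOWN and 0 UP. *Frrs1l*, needed for assembly of the receptor in the endoplasmic reticulum, had 395.9 and 434.8 CPM in the controls and 358.4 and 252.1 CPM in *Ash1L* shRNA samples 1 and 2, a log2 fold change of -0.44 (SE 0.18). *Porcn* was the other, at -0.42, while *Abhd12* and *Sacm1l* were at -0.04 and 0.01.

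Among 13 genes for anchoring and trafficking, 1 was DOWN and 1 UP, near the shares over all genes (8.28% and 8.61%), with a median of -0.05. *Dlg1*, which encodes the scaffold SAP97, had a log2 fold change of -0.36 (SE 0.13). *Nptx2*, an activity-regulated pentraxin that gathers AMPA receptors from outside the cell, stood apart in the opposite direction. It had 103.1 and 62.3 CPM in the controls and 192.0 and 347.9 CPM in *Ash1L* shRNA samples 1 and 2, a log2 fold change of 1.71 (SE 0.37, adjusted p = 0.253 in edgeR's quasi-likelihood test). Both shRNA samples were above both controls, again with sample 2 farther away. *Nsf* and *Epb4.1l1*, a fusion ATPase and a cytoskeletal protein that bind the receptor, had log2 fold changes of 0.13 and 0.20 and were not called. Of the 3 adenosine deaminase genes, *Adarb1*, whose product edits the *Gria2* transcript, had 266.5 and 212.1 CPM in the controls and 208.6 and 274.6 CPM with *Ash1L* shRNA, and the groups overlapped. *Adar* was UP at 0.36 and *Adarb2* DOWN at -0.62. Counts per gene carry no information on editing of a transcript or on its splice forms.

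The medians of the other ionotropic glutamate receptor lists were also below 0. Their calls stand beside the same shares over all genes, 8.28% DOWN and 8.61% UP. Of 7 NMDA receptor subunit genes, 4 were DOWN and 0 UP and the median was -0.40 on the log2 scale. They were *Grin2c* at -1.05, *Grin3a* at -0.43, *Grin2b* at -0.42 and *Grin2a* at -0.40. Of 7 genes for kainate receptor subunits and their Neto partners, 2 were DOWN, *Grik3* at -0.38 and *Grik2* at -0.29, and 0 UP, with a median of -0.29. The AMPA receptor genes, with 3 of 10 DOWN and a median of -0.33, lay between them, and the difference between the lists was not tested. These comparisons share the same control samples.

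**Figure D5:**
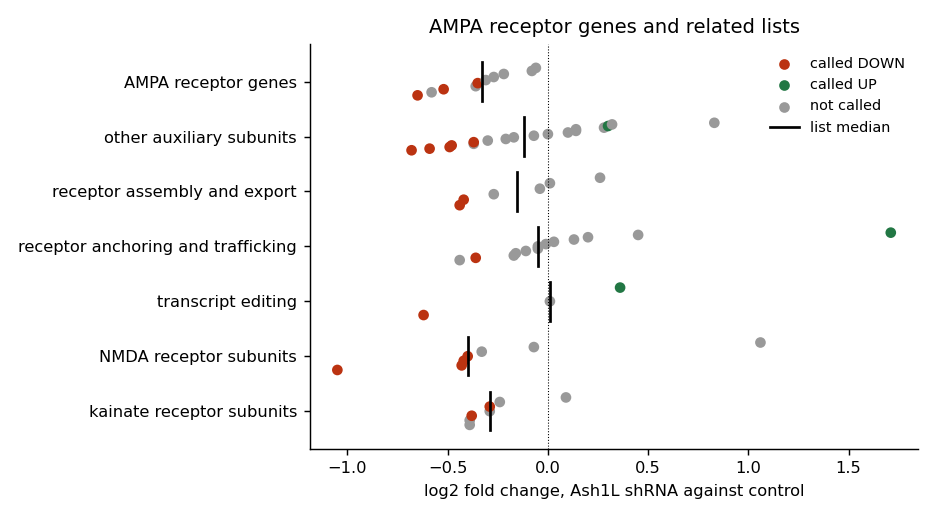
Log2 fold change of each gene in the AMPA receptor list and in 6 related lists; each point is 1 gene, the colour shows the call, and the black line is the list median. Medians run from -0.40 (NMDA receptor subunits) to 0.01 (transcript editing), with the AMPA receptor genes at -0.33, and *Nptx2* is the point at 1.71.

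Several lists of cell type markers also had medians away from 0. The calls below are unadjusted, and no marker passed 0.05 after adjustment in edgeR's quasi-likelihood test (lowest adjusted p 0.234). Over all genes tested, 8.28% were DOWN and 8.61% UP, and 26.8% had both shRNA samples below both controls. Of 8 excitatory neuron markers, the cells in which most AMPA receptor transcripts reside in cortex, 7 had both *Ash1L* shRNA samples below both controls and 3 were DOWN (*Camk2a*, *Neurod2* and *Neurod6*). The list's median log2 fold change stood at -0.40. Their summed level was 2996 to 3491 CPM in the controls and 2232 to 2765 CPM with *Ash1L* shRNA, and the median difference of these markers from the mean of the controls stood at -0.18 for *Ash1L* shRNA sample 1 and -0.67 for sample 2. For 10 pan-neuronal markers, 0 were DOWN or UP, the median was -0.12, and the sums were 7378 to 7396 CPM and 6222 to 6919 CPM. Of 6 genes listed as deep-layer markers, 5 were DOWN, among them *Fezf2* and *Tle4* (median -0.48, sums of 352.2 to 368.9 and 241.0 to 285.1 CPM). The gene of that list not called was *Rorb*, at -0.26. Of 9 interneuron markers, 4 were DOWN (*Pvalb*, *Sst*, *Lhx6* and *Reln*) and 0 UP, with a median of -0.43 and sums of 904.4 to 965.1 and 792.0 to 828.1 CPM. The general GABAergic markers *Gad1*, *Gad2* and *Slc32a1* were not called, at -0.18, 0.28 and 0.11, nor was *Npy*, at 0.15. Only 1 of 5 upper-layer markers, *Calb1*, was DOWN (median -0.17, sums of 547.5 to 595.6 and 411.6 to 512.3 CPM). Of 10 astrocyte markers, 7 were DOWN, with a median of -0.71 and sums of 5617 to 5917 and 3335 to 4525 CPM. Among 6 markers of striatal neurons, 2 were UP (*Drd2* and *Rgs9*), with a median of 0.60, and their sum was 97.2 to 113.6 CPM in the controls, 103.5 CPM in *Ash1L* shRNA sample 1 and 175.0 CPM in sample 2. Microglia markers summed to 1293 CPM in sample 1 and 497.1 CPM in sample 2, on either side of the controls (932.8 to 955.9 CPM), and 0 of 9 were called. Of 9 oligodendrocyte markers, 2 were DOWN and 0 UP (sums of 2690 to 3047 CPM in the controls and 2524 to 2854 CPM with shRNA), and of 6 markers of their precursors, 0 were DOWN and 2 UP (179.5 to 187.4 and 218.7 to 220.7 CPM). Endothelial markers (7, sums of 257.4 to 291.2 and 270.1 to 303.4 CPM) and leptomeningeal fibroblast markers (5, sums of 79.4 to 121.6 and 111.9 to 113.9 CPM) each had 1 UP and 0 DOWN. No marker in these lists was at 0 in any sample. The part of these cell classes in the result for the AMPA receptor genes was not tested.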

How the data were processed

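PFC RNA from 4 samples was sequenced after depletion of ribosomal RNA, from stranded libraries. Per the methods, alignment to mm10 used RNA STAR and featureCounts then tallied reads by gene. The authors deposited these raw, unnormalized counts under 23420 gene symbols. The labels name Cutadapt and TopHat2 instead, while the file headers name STAR. Strand and multiple-mapping settings are not given in the sources used here, so overlapping genes may share reads.

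Counts of all genes were filtered with filterByExpr, scaled by TMM and tested in edgeR 4.0.16 (R 4.3.3) with robust dispersions and the quasi-likelihood F test, comparing *Ash1L* shRNA with control, and p-values were adjusted over 16232 genes by Benjamini-Hochberg. DOWN and UP follow the study's thresholds, which it applied to DESeq2. Standard errors are the fold change divided by the root of F. Coordinates, exonic length and GC content came from GENCODE vM21 (GRCm38, the build of the files), matched for 98.4% of symbols, and promoters from RefSeq for 7 of the 10 genes, not *Gria1*, *Gria3* or *Shisa9*. *Cnih1*, *Epb41l1* and *Drd1* were found under older symbols, and *Shisa8* was not found. On simulated counts of 16041 genes for the same groups, the test was read at an adjusted p under 0.05. It recovered 34 of 62 genes changed by 1 on the log2 scale, 61 of 65 changed by 2 and 64 of 67 changed by 3. There were 24 false calls. Changes below 1, where the AMPA receptor genes lay, were not simulated, so recovery at their size is unknown. The common biological coefficient of variation was 0.173. Replicates of a group differed by more than counting error alone would give (chi-square per degree of freedom 14.8 in the control and 42.3 in the shRNA group). That cannot tell separate pools from separate libraries of 1 pool.

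The 10 genes, the related lists and the marker lists were chosen with earlier results of these data known. The call of 1 marker gene is not reported here. Named were all 10 genes and, of each related list, at most 4 genes, those called with the lowest P first and then those with the highest counts. The remaining calls of the auxiliary list and the marker genes were named after their values were seen. Alternatives were DESeq2 1.42.0 with and without betaPrior, the likelihood ratio test of edgeR, scaling by RLE, by the upper quartile or by library size alone, a filter of only 1 count or of 10 counts in every sample, a replicate block, offsets for length and GC content alone and with the block, a fold limit of 1.5 and leaving out each sample in turn.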

Additional observations from a re-analysis of the deposited data

How the results depend on the processing

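The median log2 fold change of the 10 genes stayed between -0.34 and -0.29 over the alternatives that kept all samples, and ran from -0.47 to -0.17 with 1 sample left out. The number of genes called DOWN or UP, 3 as reported, ran from 0 to 8 with 1 sample left out and was 1 with a 1.5-fold limit. The number past 0.05 after adjustment, 0 as reported, ran from 0 to 5 with 1 sample left out. With all samples kept, 4 of the 10 genes were DOWN with DESeq2 (7.79% of all genes), betaPrior (7.73%), the likelihood ratio test (7.81%) and the GC correction (7.49%). With the replicate block, 2 were DOWN, alone (6.28%) or with the length (6.39%) or GC offset (5.66%). No share over all genes is given at the 1.5-fold limit, so the count of 1 there has no background. Of single genes, *Cacng8* turned to 0.07 with the GC correction, and to 0.07 with that correction and the block. *Cacng2* ran from -0.25 to 0.07 with 1 sample left out. The cause of these shifts was not tested. The higher share of *Gria2*, 2.19 percentage points as reported, was 2.98 on raw counts and 2.84 per kb of the longest transcript, a scale chosen after seeing the data.

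The groups share replicate numbers, and no source says that a number marks a shared animal or day. The deviations of same-numbered samples from the mean of their group correlated at -0.15. With the number as a block, 2 of the 10 genes were DOWN (6.28% of all genes), *Shisa9* being the call lost, no other call changed, and 0 passed 0.05 after adjustment. Because of that correlation, a block with the numbers crossed was tried after seeing the data. With it, 7 of the 10 were DOWN (10.7% of all genes), 0 of them after adjustment. With 2 samples in each group, crossing the numbers reverses the sign of that correlation by construction. The crossed pairing was thus picked from the same data, and no conclusion is drawn from its higher number of calls.

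Over all genes, 1 passed 0.05 after adjustment in edgeR's quasi-likelihood test, against 421 with DESeq2, 406 with betaPrior, 479 with the likelihood ratio test, 34 without the filter, 0 with the block, 4 with the block and the length offset, 16 with the crossed block, and 0 to 2502 with 1 sample left out. DOWN genes numbered 1344 as reported and 306 to 2718 with 1 sample left out, and UP genes 1397 and 423 to 2368. The lowest count of the 10 genes in a sample was 396, and 2 samples in each group set the precision of every comparison.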
